A study of Rattus norvegicus with 9 samples.

Results

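The genes of the SR proteins, the hnRNP proteins, the snRNP proteins and the SF3a and SF3b complexes were followed in rat peripheral blood mononuclear cells (PBMC, the lymphocytes and monocytes of blood). The group was formed by symbol: every gene of the deposited table whose symbol begins with Srsf, Hnrnp, Snrp, Sf3a or Sf3b, pseudogenes left out. This gave 53 of the 22077 intact genes in the table, made up of 12 Srsf, 19 Hnrnp, 13 Snrp and 9 Sf3a or Sf3b genes. The cells came from wild-type Sprague-Dawley rats, and the total RNA libraries form 3 groups of 3: normoxia at day 0, Sugen-Hypoxia at day 28 and Sugen-Hypoxia at day 56. Sugen-Hypoxia is a model of pulmonary hypertension in which an inhibitor of VEGF receptors is combined with low oxygen. The labels give no age, no agent dose and no statement that replicates were separate animals, and the spread behind each p-value is that of these libraries alone and may be technical. The only controls are the day 0 libraries, so day, age and treatment cannot be told apart.

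Introns are cut out of a transcript by the spliceosome, which is built on small nuclear RNAs wrapped in a ring of Sm proteins (the snRNPs). The U1 particle marks the start of an intron and the U2 particle, with its SF3a and SF3b proteins, its branch point. SR proteins mostly bind exons and favour their inclusion, and hnRNP proteins coat the nascent transcript and often oppose it. Several of these genes control their own amount by keeping an intron or including a so-called poison exon, a transcript form that stays in the nucleus or is destroyed, so exon reads and intron reads of the same gene were measured side by side.

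The sequences before the annotated start of 8 genes are shown because their exon or intron reads differed from normoxia at day 56. Sf3a2, Sf3b4, Hnrnpd and Hnrnpdl differed in exon reads. Snrpa1, Snrpd3, Snrpd1 and Snrpc differed in intron reads, with exon values of the other sign that were not called. Each sequence is the 160 bases upstream of the start on the gene's own strand, 5′ to 3′, from RefSeq on GRCr8. Capitals mark matches on either strand to the GC box GGGCGG, to the CCAAT box, whose letters are its name, to the ETS site CCGGAAGT or to an NRF1 site, which is the last run of capitals in the Sf3a2 line. The windows lie at chr7:9566206-9566365 (minus strand), chr2:186421507-186421666 (plus), chr14:9919597-9919756 (plus), chr14:9861556-9861715 (plus), chr1:129051890-129052049 (plus), chr20:13144921-13145080 (minus), chr18:1969514-1969673 (plus) and chr20:5890069-5890228 (plus), in the order printed.
Sf3a2: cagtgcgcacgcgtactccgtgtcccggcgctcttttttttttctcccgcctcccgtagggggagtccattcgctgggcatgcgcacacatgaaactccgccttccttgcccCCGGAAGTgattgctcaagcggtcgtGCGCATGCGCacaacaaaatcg
Sf3b4: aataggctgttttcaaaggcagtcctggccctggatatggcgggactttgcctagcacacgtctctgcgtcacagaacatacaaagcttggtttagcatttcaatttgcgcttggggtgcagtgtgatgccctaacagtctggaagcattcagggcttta
Hnrnpd: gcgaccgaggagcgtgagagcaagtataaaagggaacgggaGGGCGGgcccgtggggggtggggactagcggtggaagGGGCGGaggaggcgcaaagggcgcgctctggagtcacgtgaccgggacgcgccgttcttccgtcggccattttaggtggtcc
Hnrnpdl: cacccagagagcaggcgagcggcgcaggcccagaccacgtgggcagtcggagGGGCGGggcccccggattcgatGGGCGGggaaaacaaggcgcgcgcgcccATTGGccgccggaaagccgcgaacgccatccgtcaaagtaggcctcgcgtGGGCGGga
Snrpa1: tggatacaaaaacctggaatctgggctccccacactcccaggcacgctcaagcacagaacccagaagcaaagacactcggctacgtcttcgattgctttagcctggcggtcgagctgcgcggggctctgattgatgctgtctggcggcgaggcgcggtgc
Snrpd3: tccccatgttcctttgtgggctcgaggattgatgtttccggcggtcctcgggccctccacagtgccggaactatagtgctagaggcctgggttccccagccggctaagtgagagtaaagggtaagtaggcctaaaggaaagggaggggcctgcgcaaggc
Snrpd1: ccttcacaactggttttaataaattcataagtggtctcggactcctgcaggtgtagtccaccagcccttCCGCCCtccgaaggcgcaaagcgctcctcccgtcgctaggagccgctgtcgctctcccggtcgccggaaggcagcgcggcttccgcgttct
Snrpc: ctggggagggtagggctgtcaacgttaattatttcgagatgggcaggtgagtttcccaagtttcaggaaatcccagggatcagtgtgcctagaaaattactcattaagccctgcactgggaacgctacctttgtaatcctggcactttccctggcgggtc

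Sf3a2 carries an ETS and an NRF1 match, Hnrnpd 2 GC boxes, Hnrnpdl 3 GC boxes and a CCAAT box and Snrpd1 a GC box on the other strand in these windows, and no searched motif was found in those of Sf3b4, Snrpa1, Snrpd3 and Snrpc. RefSeq held a promoter for 50 of the 53 genes. In the 250 bases before the start, a GC box was present in 56% of the 50 promoters and in 30.5% of all 33469 rat promoters in the table. The shares were 50% and 34% for the CCAAT box, 14% and 3.1% for the ETS site and 4% and 0.762% for the NRF1 site. The AP-1 letters TGACTCA were in 2% and 4.05%, the CRE letters TGACGTCA in 2% and 1.59%, and the YY1 letters AAGATGGC in 0% and 1.63%. The median G and C content was 59% in the group's promoters and 51.2% in all, and the median number of CpG pairs 19 and 5. A match describes these letters and no more.

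Libraries held 22148400 to 39947430 exon reads. The 5 globin genes took 43.0% to 56.3% of exon reads in normoxia, 1.42% to 29.0% at day 28 and 40.5% to 44.4% at day 56, so RNA of red cells was present, and in bulk samples fewer cells of a type and less RNA per cell cannot be told apart. Markers of T, B and NK cells, monocytes, neutrophils, platelets and erythroid cells were all detected, with no marker found in the table at 0. Summed erythroid markers other than globins ranged from 3481 to 9087 CPM in normoxia, 102 to 2086 CPM at day 28 and 4017 to 4592 CPM at day 56, and summed monocyte markers from 2055 to 4349, 3204 to 10350 and 1660 to 2618 CPM. Intron reads made up 14.6%, 6.60% and 5.37% of gene reads in normoxia replicates 1, 2 and 3, 24.9%, 21.4% and 14.2% at day 28 and 16.9%, 14.0% and 11.9% at day 56. Normoxia replicate 1 stood apart from its group, as did day 28 replicate 3. The column headings carry library numbers in 3 runs: normoxia and day 56 replicate 1 (46 and 47), normoxia and day 56 replicates 2 and 3 (61 to 64), and all of day 28 (68 to 70). What these numbers mean is not stated; day 28 has a run of its own, so that run and day 28 cannot be told apart, while day 56 and normoxia can be compared within each of the other two.

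The group was expressed throughout: 50 of 53 genes passed the filter on exon reads (edgeR's filterByExpr default) and 49 that on intron reads. Exon levels are given as CPM, the usual scaling of reads to library size, here corrected with TMM factors, and per kilobase of exon where genes are compared. The most abundant per kilobase, as means over 9 libraries, were Srsf5, an SR protein, at 357 CPM, and the hnRNP genes Hnrnpa2b1 at 339 CPM and Hnrnpa1 at 310.5 CPM. The least abundant that passed were Srsf12 at 4.43 CPM, Hnrnpll, an hnRNP best known for the switch of CD45 isoforms in lymphocytes, at 5.41 CPM, and Sf3a2, a subunit of SF3a, at 12.1 CPM. Srsf8 had 0 reads in all 9 libraries, which allows up to 0.0762 to 0.195 CPM in a library (3 counts, counting error only). Snrpn, an imprinted Sm gene known from brain, was at most 0.221 CPM in any library, and Snrpd2l at most 0.0736 CPM; neither passed the filter.

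The SR genes had the highest share of intron reads of the 4 families in every library. Summed over the family, intron reads were 31.7%, 21.5% and 21.6% of gene reads in normoxia replicates 1 to 3, 36.6%, 34.5% and 30.7% at day 28 and 38.1%, 33.3% and 31.2% at day 56. The hnRNP genes had 18.8%, 12.0% and 11.6%, then 21.3%, 19.4% and 16.5%, then 23.3%, 18.8% and 17.3% in the same order. The Snrp genes had 14.1%, 6.14% and 5.58% in normoxia, 25.0%, 19.7% and 12.8% at day 28 and 27.9%, 20.8% and 18.2% at day 56. The Snrp sums include the single-exon loci Snrpe and Snrpg, which are uncertain as described below and add exon reads unevenly between libraries. In all 3 families normoxia replicates 2 and 3 were the lowest libraries, and normoxia replicate 1 lay within the range of the Sugen-Hypoxia libraries. In the Sf3a and Sf3b genes the shares were 12.9%, 6.99% and 7.17%, 11.7%, 10.6% and 11.5%, and 14.4%, 11.3% and 10.03%.

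Per base, introns of Srsf1 were covered at 97.4% of the density of its exons and those of Srsf2 at 93.2%, followed by Srsf6 at 52.0%, Hnrnpdl at 36.3%, Srsf7 at 33.7% and Srsf10 at 31.2%, over the reads of all libraries. These 6 genes were picked after their values were seen. The annotated exons of Srsf1 span 5086 bases, which leaves 966 bases of intron. At the other end, introns of Sf3b2, a subunit of SF3b, were covered at 0.749% of exon density, those of Snrpd3 at 0.803% and those of Snrpd2 at 0.815%, the lowest of the genes that passed the filter on intron reads. Over 49 genes the median share of intron reads was 21.9%, 12.0% and 12.3% in normoxia, 25.0%, 21.2% and 17.2% at day 28 and 25.0%, 22.7% and 19.7% at day 56. Over the 11033 genes with at least 20 reads in every library the medians were 26.2%, 15.9% and 15.9%, 31.1%, 28.0% and 23.1%, and 30.6%, 27.1% and 25.1%. In both, normoxia replicates 2 and 3 were the lowest libraries and replicate 1 of days 28 and 56 the highest.

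At day 28 no gene of the group passed the test on exon reads. Of 50 genes 0 were called (edgeR quasi-likelihood test, Benjamini-Hochberg adjusted p under 0.05 over all 12447 genes tested), against 0.129% of all genes. At an unadjusted p under 0.05 there were 11, or 22% against 28.8% of all genes. DESeq2 called 0 higher and 3 lower, against 6.39% and 7.45% of all genes. The 3 day 28 libraries lay above all normoxia libraries in 4 genes and below them in 3, against 11.4% and 11.8% of all genes. The median log2 fold change was -0.05 in the group and -0.01 in all genes. By family it was -0.02 in SR genes, 0.04 in hnRNP genes, -0.70 in Snrp genes and 0.05 in Sf3a and Sf3b genes, and 10 of 11 Snrp genes had a negative value. The 11 include Snrpe and Snrpg, whose loci are uncertain as described below.

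At day 56 exon reads of 4 genes rose against normoxia and those of 0 fell, of 50 tested; among all genes 3.42% were called higher and 3.7% lower. The 4 were the U2 snRNP genes Sf3a2 and Sf3b4 and the AU-rich RNA binders Hnrnpd (AUF1) and Hnrnpdl. The groups did not overlap in 14 genes that were higher and 2 that were lower, against 15.6% and 14.9% of all genes. The median log2 fold change was -0.04 in both the group and all genes, and 18 of 50 genes had an unadjusted p under 0.05, or 36% against 30.9% of all genes. All calls at both days share the same normoxia libraries.

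Sf3a2, a subunit of the SF3a complex, stood at 17.8, 10.2 and 9.93 CPM in normoxia, 20.4, 17.6 and 16.1 CPM at day 28 and 28.1, 27.7 and 27.5 CPM at day 56. The day 56 libraries lay above all others and close together, while normoxia replicate 1 lay in the range of day 28. Its log2 fold change at day 56 was 1.14 (SE 0.23, edgeR adjusted p = 0.0258), and 0.52 at day 28 (SE 0.23, adjusted p = 0.175).

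Sf3b4, a subunit of the SF3b complex, had 30.9, 19.4 and 19.5 CPM in normoxia, 36.5, 29.7 and 34.5 CPM at day 28 and 41.2, 39.8 and 41.7 CPM at day 56. Day 56 again lay above every other library. The log2 fold change was 0.81 at day 56 (SE 0.20, adjusted p = 0.0426) and 0.53 at day 28 (SE 0.20, adjusted p = 0.133).

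Hnrnpd had 85.9, 71.9 and 69.6 CPM in normoxia, 111, 112 and 97.1 CPM at day 28 and 158, 115 and 112 CPM at day 56. All 6 Sugen-Hypoxia libraries lay above the 3 of normoxia, and day 56 replicate 1 was the highest. The log2 fold change at day 56 was 0.76 (SE 0.18, adjusted p = 0.0407). Its relative Hnrnpdl had 94.6, 105 and 95.5 CPM in normoxia, 130, 118 and 112 CPM at day 28 and 154, 140 and 143 CPM at day 56, which gives a log2 value of 0.57 at day 56 (SE 0.14, adjusted p = 0.0463). The order normoxia, day 28, day 56 held without overlap for Hnrnpdl. The 2 genes lie on the same chromosome in rn6, Hnrnpdl at chr14:11198895-11202669 and Hnrnpd at chr14:11256267-11274578, where a start or end in the file may be off by 1 base.

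**Figure D1:**
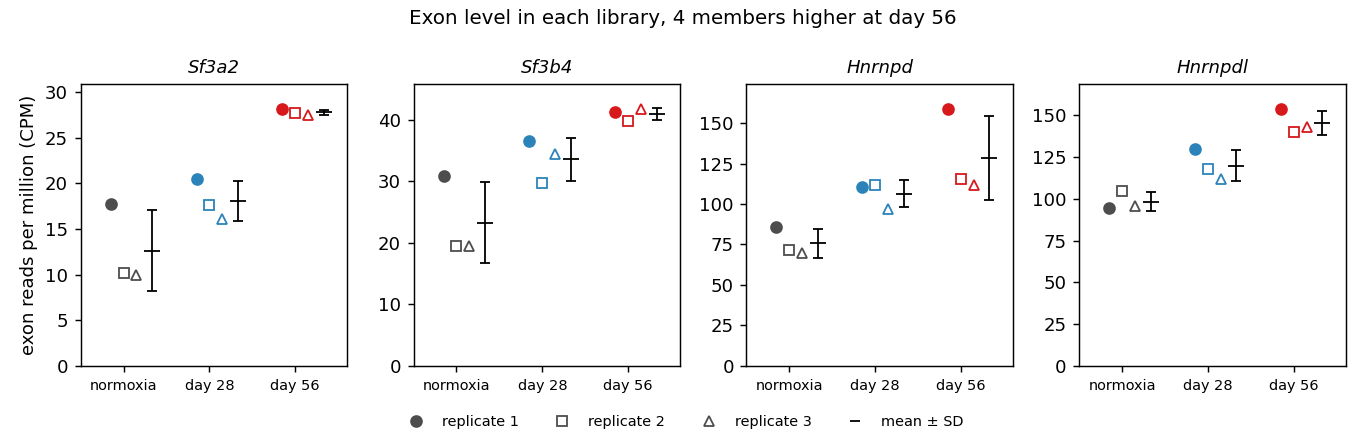
Exon level (CPM, linear axis from 0) of Sf3a2, Sf3b4, Hnrnpd and Hnrnpdl in each of the 9 libraries, by group; marker shape gives the replicate and the black bar the mean ± SD (n = 3). Day 56 lies above normoxia in every gene, and in Sf3a2 and Sf3b4 normoxia replicate 1 lies above the other 2 normoxia libraries.

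These 4 calls rested on few libraries. Without normoxia replicate 2 or 3, or without any 1 day 56 library, 0 of the 4 were called, and without any 1 day 28 library 1 was. The direction was the same within both runs of library numbers: the log2 difference in CPM between day 56 and normoxia was 0.66 and 1.46 for Sf3a2, 0.41 and 1.06 for Sf3b4, 0.88 and 0.68 for Hnrnpd and 0.70 and 0.50 for Hnrnpdl in the run of 46 and 47 (1 library each) and in that of 61 to 64 (2 each). The 4 genes were picked by a test on these same libraries, so the shared direction is a description and no separate support. With the share of intron reads of each library as a covariate 0 were called, and with the share of globin reads 1. Shares of all genes under these left-out libraries and covariates are not given, so the losses cannot be read as particular to these genes. With the run as a block, a choice made after seeing the files, all 4 were called among 7 higher and 1 lower (background 7.82% and 7.78%).

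The best known SR genes showed no call on exon reads at day 56. Srsf1, the founding SR protein, had 284, 184 and 178 CPM in normoxia, 175, 151 and 235 CPM at day 28 and 246, 149 and 137 CPM at day 56 (log2 fold change -0.28, SE 0.29, adjusted p = 0.539). In each group 1 library was far above the other 2, replicate 1 in normoxia and at day 56 and replicate 3 at day 28. The log2 fold change was 0.30 for Srsf2 (SC35; SE 0.21, adjusted p = 0.359), -0.34 for Srsf5 (SE 0.28, adjusted p = 0.430) and -0.32 for Srsf7 (SE 0.16, adjusted p = 0.208). Srsf3, the smallest SR protein, had 194, 447 and 447 CPM in normoxia and 206 to 256 CPM in all Sugen-Hypoxia libraries, a log2 fold change of -0.72 that did not pass (SE 0.29, adjusted p = 0.133). Its normoxia replicate 1 lay below all 6 Sugen-Hypoxia libraries.

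Among the abundant hnRNP genes, Hnrnpa1 had 455, 759 and 749 CPM in normoxia, 526 to 566 CPM at day 28 and 562 to 716 CPM at day 56 (day 56 log2 fold change -0.09, SE 0.24, adjusted p = 0.824). Hnrnpa2b1 had 374 to 400 CPM in normoxia, 350 to 399 CPM at day 28 and 298 to 336 CPM at day 56, lower than every other library at day 56 without passing (-0.29, SE 0.17, adjusted p = 0.262). Hnrnpc, a core hnRNP protein that binds uridine runs, differed by 0.17 (SE 0.14, adjusted p = 0.448). Only 17.5% of the exon reads of Hnrnpc mapped uniquely, so its level is uncertain. In the U2 snRNP, Sf3b1, the branch point protein mutated in blood cancers, had 605 to 659 CPM in normoxia and 518 to 694 CPM at day 56 (-0.12, SE 0.20, adjusted p = 0.712). Sf3a1 had 74.8, 44.7 and 40.6 CPM in normoxia and 81.9, 79.5 and 74.9 CPM at day 56 (0.56, SE 0.23, adjusted p = 0.132); its locus overlaps Ccdc157 in the table.

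The Snrp genes showed the largest gap within the normoxia group. Their summed exon level was 344 CPM in normoxia replicate 1, 716 and 685 CPM in replicates 2 and 3, 400 to 418 CPM at day 28 and 416 to 454 CPM at day 56. Normoxia replicate 1 thus lay below all 6 Sugen-Hypoxia libraries and replicates 2 and 3 above them. These sums include the uncertain loci Snrpe and Snrpg, described below. Snrpd3, a Sm ring protein, had 32.0, 83.1 and 77.8 CPM in normoxia and 34.3 to 40.8 CPM in the 6 Sugen-Hypoxia libraries (log2 fold change -0.82 at day 28, SE 0.30, adjusted p = 0.128; -0.79 at day 56, SE 0.30, adjusted p = 0.117). Snrpd1, its neighbour in the family, had 14.4, 35.7 and 33.6 CPM in normoxia and 14.4 to 19.9 CPM in the Sugen-Hypoxia libraries (-0.59 at day 56, SE 0.29, adjusted p = 0.201). Snrpb, which encodes the Sm proteins B and B′, had 84.7, 110 and 106 CPM in normoxia and 90.9 to 110 CPM in the others (0.07 at day 56, SE 0.16, adjusted p = 0.775).

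Sf3b6, which sits at the branch point as part of SF3b, had 6.16, 14.5 and 14.0 CPM in normoxia and 4.96 to 6.81 CPM in the other 6 libraries (-0.98 at day 28, SE 0.31, adjusted p = 0.108). Snrpa1, the U2 A′ protein, had 14.8, 28.4 and 28.1 CPM in normoxia, 13.1, 13.3 and 12.2 CPM at day 28 and 17.2, 17.1 and 18.6 CPM at day 56. It lay below all normoxia libraries at day 28 (-0.88, SE 0.24, adjusted p = 0.0897). These 2 genes and Snrpg, treated with the uncertain loci below, had the lowest p-values at day 28.

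**Figure D2:**
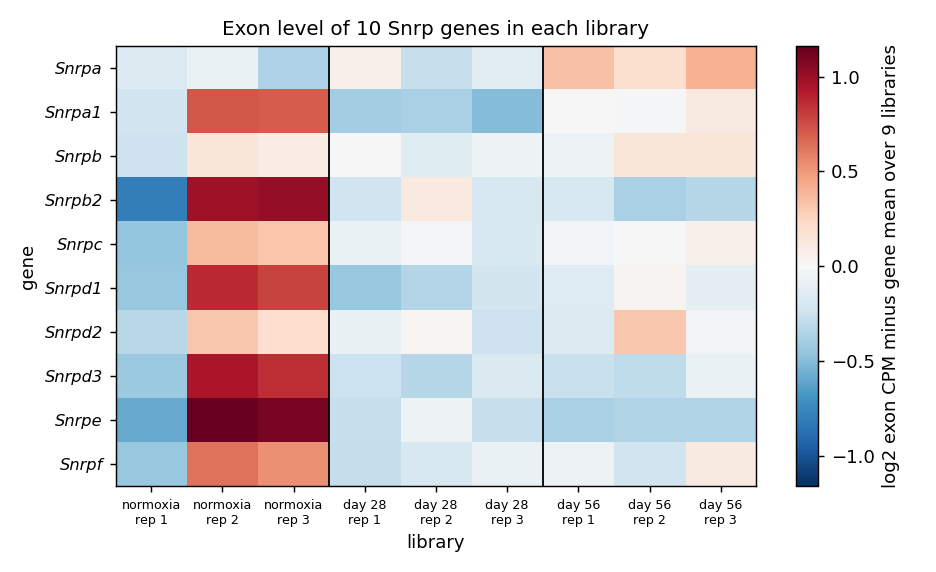
Exon level of 10 Snrp genes (rows) in each library (columns), as log2 CPM minus the gene's mean over the 9 libraries; red is above and blue below that mean, and Snrpg, Snrpn and Snrpd2l are not drawn. Normoxia replicates 2 and 3 are the red columns for most genes, while normoxia replicate 1 is on the blue side in all 10.

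The place of normoxia replicate 1 sets how many genes are called. In 16 of 50 genes its exon level lay within the range of the 6 Sugen-Hypoxia libraries while both other normoxia libraries lay outside it, a share of 32% against 32.9% of all genes tested. Left out, 10 genes were higher and 17 lower at day 28 (background 23% and 22.2%), and 15 higher and 17 lower at day 56 (background 21.8% and 21.2%), all by edgeR at an adjusted p under 0.05. The 4 genes named above were among the 15. Of 11 Snrp genes 8 were then lower at each day, with Snrpa1 at -0.67 (SE 0.10, adjusted p = 0.00146), Snrpd1 at -0.88 (SE 0.12, adjusted p = 0.000757) and Snrpd3 at -1.09 (SE 0.11, adjusted p = 0.000263) at day 56. The 8 include Snrpe and Snrpg, whose loci are uncertain as described below. With day 28 replicate 3 left out as well, an alternative added once the data had been seen, the counts were 9 higher and 17 lower at day 28 and 15 higher and 17 lower at day 56 (background 24.2%, 22.3%, 23.1% and 22.7%). Within the run of 46 and 47, where normoxia replicate 1 is the control, the log2 difference in exon CPM at day 56 was 0.22 for Snrpa1, 0.29 for Snrpd1 and 0.17 for Snrpd3, and in the run of 61 to 64 it was -0.67, -0.87 and -1.09. The sign of these 3 genes thus differed between the runs, as did that of Snrpc (0.41 and -0.31).

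Intron reads were tested on their own, with TMM factors of intron reads. At day 28, 0 of 49 genes were called (1.59% of all genes; 11, or 22.4% against 27.2%, had an unadjusted p under 0.05, and DESeq2 called 3 higher and 1 lower, against 5.99% and 7.44%). At day 56, 7 were higher and 0 lower, against 8.16% and 7.49% of all genes. They comprised 4 of the 10 Snrp genes tested (Snrpd1, Snrpc, Snrpa1 and Snrpd3), both Sf3a2 and Sf3b4, and Hnrnph2. With upper-quartile factors the split was 7 higher and 1 lower (7.51% and 8.41% of all genes), and with DESeq2 9 higher and 5 lower (10.2% and 10.8%). The day 56 libraries lay above all normoxia libraries in 14 genes and below them in 6, against 20% and 16.9% of all genes. The median log2 fold change was 0.05 in the group and -0.04 in all genes. Leaving out normoxia replicate 1, 2 or 3 made the day 56 count 20 (28.9% of all genes in the first case), 4 and 2, and leaving out day 56 replicate 1, 2 or 3 made it 2, 2 and 3. It fell to 0 when the intron share entered as covariate and stayed 7 when the globin share did. Leaving out normoxia replicate 1 made the day 28 count 13 (25.8% of all genes), and leaving out day 28 replicate 3 made it 4. Shares of all genes for the other left-out libraries and the covariates are not given, so those changes cannot be read as particular to the group.

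Snrpd1 had 51.2, 49.4 and 41.0 intron CPM in normoxia, 181, 133 and 55.2 at day 28 and 205, 157 and 149 at day 56. All Sugen-Hypoxia libraries lay above normoxia, day 28 replicate 3 by little. The log2 fold change of intron reads was 1.84 at day 56 (SE 0.36, adjusted p = 0.0107) and 1.37 at day 28 (SE 0.36, adjusted p = 0.0585). Snrpc, a U1 protein, had 48.0, 42.6 and 41.0 intron CPM in normoxia, 76.5, 88.6 and 38.3 at day 28 and 108, 84.9 and 97.0 at day 56 (1.14 at day 56, SE 0.28, adjusted p = 0.0225). At day 28 its replicate 3 lay below normoxia.

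Snrpa1 had 84.5, 113 and 97.9 intron CPM in normoxia, 129, 101 and 111 at day 28 and 218, 179 and 165 at day 56, and day 56 lay above every other library (0.93, SE 0.18, adjusted p = 0.0107). Snrpd3 had 29.4, 31.1 and 34.5 intron CPM in normoxia, 57.0, 49.1 and 37.2 at day 28 and 51.3, 51.2 and 48.7 at day 56 (0.68 at day 56, SE 0.20, adjusted p = 0.0404). Exon values of Snrpd1, Snrpc, Snrpa1 and Snrpd3 were negative and not called, while Sf3a2 was higher in introns as in exons. The intron level of Sf3a2 was 43.9, 27.5 and 31.7 CPM in normoxia and 62.5, 79.0 and 73.3 CPM at day 56 (1.04, SE 0.27, adjusted p = 0.0264). Sf3b4 rose by 0.66 in intron reads (SE 0.16, adjusted p = 0.0215).

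Hnrnph2, a binder of G-rich RNA, rose in intron reads from 31.1, 50.2 and 42.5 CPM in normoxia to 84.8, 63.6 and 66.9 CPM at day 56 (0.81, SE 0.21, adjusted p = 0.0299). Its day 28 libraries lay at 48.8, 59.8 and 52.8 CPM, between the others but overlapping with normoxia. At day 28 the lowest p-values in intron reads, none past the threshold, belonged to Snrpd1, Snrpd3 (0.60, SE 0.19, adjusted p = 0.0860) and Sf3a3, a subunit of SF3a, whose value was negative (-0.57, SE 0.17, adjusted p = 0.0772).

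**Figure D3:**
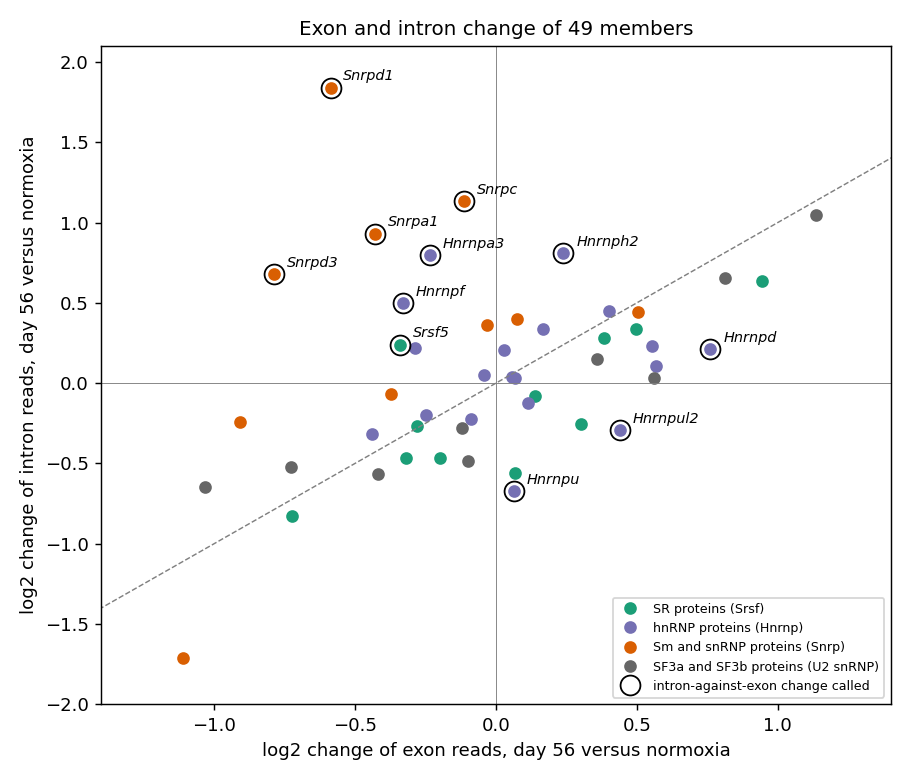
Log2 fold change at day 56 against normoxia of exon reads (x axis) and of intron reads (y axis) for the 49 genes that passed both filters, coloured by family; the dashed line marks equal change, and rings mark the 11 genes called for the change of introns against exons. Snrpd1, Snrpd3, Snrpa1 and Snrpc lie at the upper left, with positive intron values and negative exon values that were not called. Hnrnpd lies below the line with a positive exon value, and the lowest point is Snrpe, a single-exon locus.

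The exon and intron changes were compared in 1 model over both kinds of read, in which the term of interest is the log2 change of the intron-to-exon ratio. Since exon and intron columns each carry their own library sizes, this change is relative to the bulk of genes. At day 28, 2 of 49 genes were called, both higher, against 1.61% of all genes called higher and 0.682% lower. At day 56, 8 were higher and 3 lower, against 8.9% and 6.25% of all genes. Scaled by the exon sizes alone, the median of all genes moved to 0.61 at both days, and the split in the group became 11 higher and 0 lower at day 56 and 0 and 0 at day 28. All genes shifted the same way under that scaling, with 15.1% higher and 0.264% lower at day 56 and 1.32% and 0.0455% at day 28. Leaving out normoxia replicate 1, 2 or 3 made the day 56 count 19 (35.5% of all genes in the first case), 4 and 1, and leaving out day 56 replicate 1, 2 or 3 made it 2, 3 and 4. The day 28 count became 18 with normoxia replicate 1 left out (28.6% of all genes), 7 with day 28 replicate 3 left out and 0 with any other 1 library left out. For libraries other than normoxia replicate 1 the share of all genes is not given, so those changes cannot be read as particular to the group. With all libraries and separate sizes, the median of this term was -0.04 in the group and -0.03 in all genes at day 56.

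In Snrpd1 intron reads made up 38.0%, 11.3% and 9.91% of gene reads in normoxia, 72.2%, 61.3% and 32.2% at day 28 and 70.5%, 57.8% and 56.3% at day 56. The day 56 libraries lay above those of normoxia, and day 28 replicate 3 lay below normoxia replicate 1. The ratio changed by 2.29 on the log2 scale at day 56 (SE 0.48, edgeR adjusted p = 0.0125) and by 1.96 at day 28, which did not pass (SE 0.49, adjusted p = 0.0595). The log2 difference was 1.71 in the run of 46 and 47 and 2.63 in that of 61 to 64.

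In Snrpa1 the intron share was 49.6%, 26.9% and 23.9% in normoxia, 67.2%, 58.3% and 56.8% at day 28 and 72.3%, 64.5% and 58.2% at day 56, with both days above normoxia. The change was 1.02 at day 28 (SE 0.21, adjusted p = 0.0382) and 1.29 at day 56 (SE 0.21, adjusted p = 0.00494). The day 56 call of Snrpa1 was made in all 20 alternatives that were run for it, with adjusted p from 3.14e-06 to 0.0327. The day 28 call was made in 10 of 19. Within the runs of library numbers the day 56 difference was 1.15 and 1.37.

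Snrpd3 had intron shares of 13.7%, 3.34% and 3.85% in normoxia, 24.6%, 20.9% and 12.3% at day 28 and 22.8%, 20.3% and 15.8% at day 56 (1.32 at day 56, SE 0.31, adjusted p = 0.0183; 1.26 at day 28, SE 0.31, adjusted p = 0.0568). Snrpc had 27.1%, 9.16% and 8.89% in normoxia, 35.5%, 35.3% and 17.2% at day 28 and 43.1%, 32.6% and 32.5% at day 56 (1.18, SE 0.32, adjusted p = 0.0308). In each of these 4 Snrp genes the share at day 56 lay above all of normoxia, and normoxia replicate 1 lay well above replicates 2 and 3. The median share over genes of the whole table, given above, was likewise higher at day 56 than in normoxia replicates 2 and 3.

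The SR and hnRNP genes with a higher ratio at day 56 had smaller changes. Srsf5 had intron shares of 15.8%, 11.9% and 11.2% in normoxia, 29.6%, 27.6% and 20.02% at day 28 and 30.7%, 25.0% and 24.6% at day 56, both days above normoxia (0.65, SE 0.18, adjusted p = 0.0316). Hnrnpf, a binder of G-rich RNA like Hnrnph2, had 8.21%, 3.31% and 3.14% in normoxia and 14.2%, 10.8% and 9.28% at day 56 (0.79, SE 0.20, adjusted p = 0.0242). Hnrnph2 had 10.1%, 7.15% and 6.58% in normoxia and 20.9%, 14.8% and 14.4% at day 56 (0.57, SE 0.18, adjusted p = 0.0475). Srsf5 and Hnrnph2 fall outside the 6 largest rises and were named after their values were seen.

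Hnrnpa3, a relative of Hnrnpa1, was called at both days. Its intron share was 3.26%, 1.41% and 1.64% in normoxia, 7.59%, 7.34% and 3.85% at day 28 and 8.52%, 5.04% and 4.39% at day 56, with both days above normoxia (1.03 at day 28, SE 0.23, adjusted p = 0.0426; 0.96 at day 56, SE 0.23, adjusted p = 0.0198). Only 32.7% of its exon reads mapped uniquely, against 99.9% of its intron reads, so copies elsewhere could share its exon reads. On uniquely mapped reads alone its log2 change was 1.12 at day 28 (adjusted p = 0.0714) and 0.98 at day 56 (adjusted p = 0.0479), so the day 28 call was lost.

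The 3 genes with a lower ratio at day 56 were hnRNP genes. Hnrnpu, also called scaffold attachment factor A, had 495, 386 and 357 intron CPM in normoxia, 281, 277 and 402 at day 28 and 339, 222 and 215 at day 56, while its exon level was 319 to 380 CPM in normoxia and 339 to 408 CPM at day 56 (-0.75, SE 0.19, adjusted p = 0.0248). Its intron level at day 56 lay below all of normoxia while exon levels overlapped. Its relative Hnrnpul2 changed by -0.74 (SE 0.16, adjusted p = 0.0148), with exon levels of 149, 89.1 and 84.7 CPM in normoxia and 148, 147 and 144 CPM at day 56.

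Hnrnpd, whose exon reads rose, had 242 to 247 intron CPM in normoxia and 254 to 333 intron CPM at day 56 (-0.54, SE 0.15, adjusted p = 0.0350). The raw intron shares of these 3 genes overlapped between normoxia and day 56: they were 33.1%, 23.7% and 24.1% and then 30.3%, 28.4% and 26.3% in Hnrnpd. The 3 lower calls are therefore statements about the genes against the bulk, and with exon sizes alone the log2 change of Hnrnpd was 0.11 (adjusted p = 0.816).

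**Figure D4:**
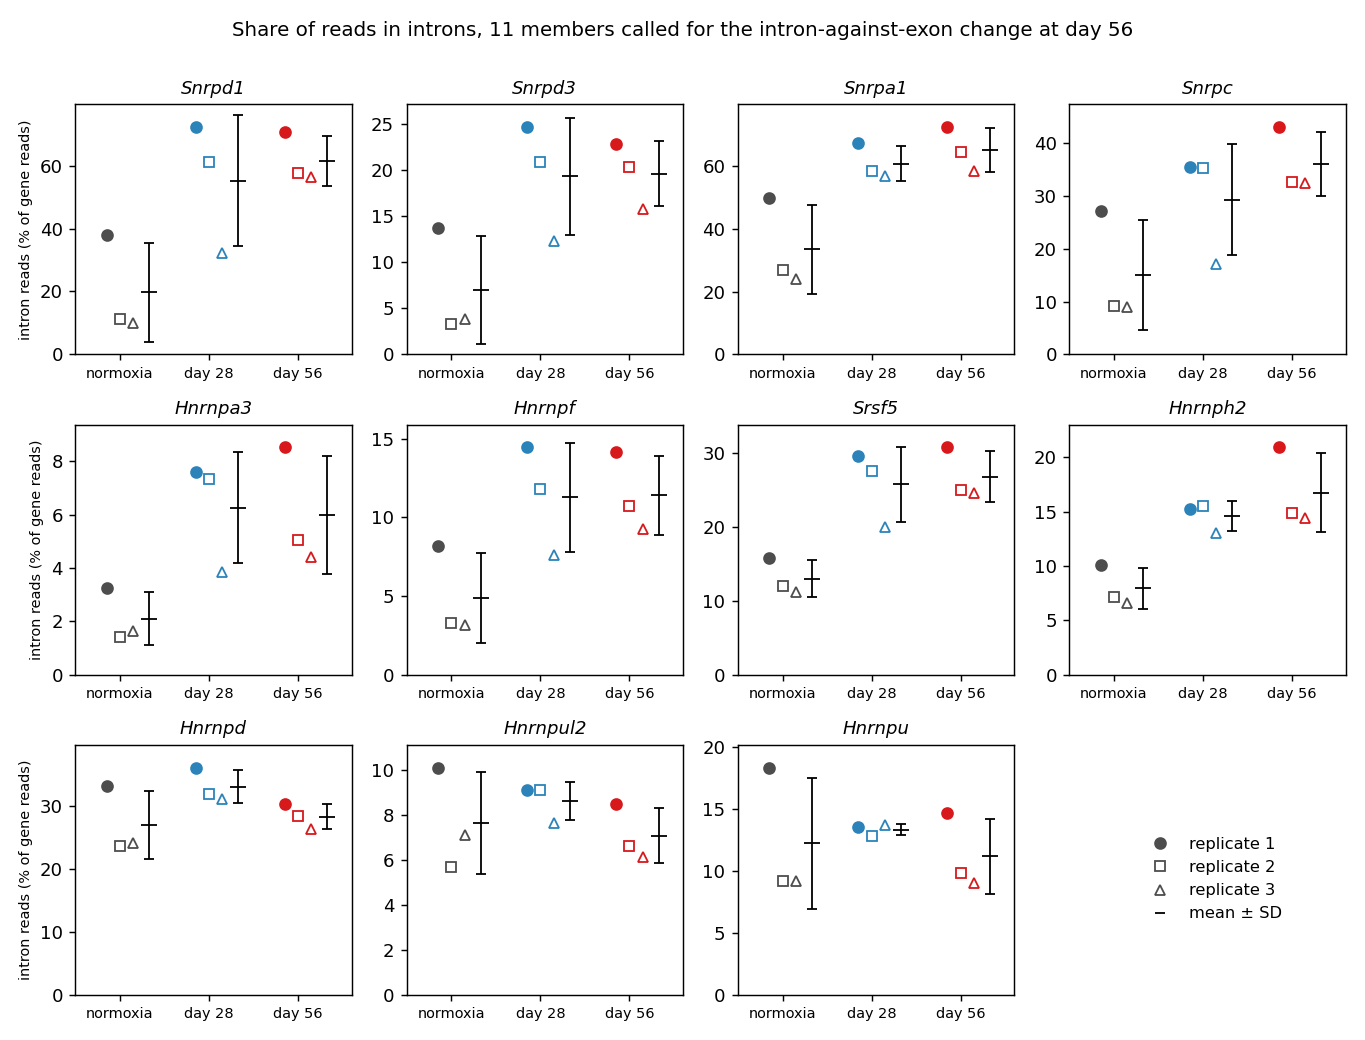
Intron reads as a percentage of gene reads in each library for the 11 genes called for the intron-against-exon change at day 56, 8 higher and then 3 lower; marker shape gives the replicate and the black bar the mean ± SD (n = 3), and each axis starts at 0. In the 8 higher genes all day 56 libraries lie above all normoxia libraries, and in the 3 lower genes the raw shares of the 2 groups overlap. The genes were picked by a test on the same reads. Over 11033 genes the median share was 26.2%, 15.9% and 15.9% in normoxia and 30.6%, 27.1% and 25.1% at day 56.

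Between day 28 and day 56 no gene of the group was called in any of the 3 measures (0 of 50 for exon reads, 0 of 49 for intron reads and for the ratio, against 0.546%, 0.922% and 1.36% of all genes by edgeR). DESeq2 called 1 gene higher in exon reads (4.81% of all genes), 2 higher and 1 lower in intron reads (3.1% and 3.48%) and 0 in the ratio (2.06% and 2.5%). An unadjusted p under 0.05 was seen for 4, 3 and 1 genes, against 18.5%, 18.9% and 17.5% of all genes. Exon levels at day 56 lay above all day 28 libraries in 17 genes and below them in 4, against 17.8% and 17.4% of all genes, and 34 of 50 values were positive, with a median of 0.09 against -0.01 in all genes. The lowest p-values were those of Snrpg, Sf3a2 and Snrpa, the U1 A protein, in exon reads. Snrpa had 12.8 to 16.1 CPM at day 28 and 17.5 to 20.4 CPM at day 56 (0.42, SE 0.16, adjusted p = 0.197). In intron reads they were Snrpa1 (0.72, SE 0.18, adjusted p = 0.0715), Sf3a2 (1.02, SE 0.26, adjusted p = 0.0773) and Sf3b3, a subunit of SF3b (-0.47, SE 0.15, adjusted p = 0.130). In the ratio they were Sf3b3 (-0.32, SE 0.14, adjusted p = 0.273), Hnrnpd (-0.33, SE 0.15, adjusted p = 0.288) and Sf3a2 (0.43, SE 0.21, adjusted p = 0.312). Without normoxia replicate 1, which is in neither of the groups compared here, 3 genes were called in exon reads (7.89% of all genes), 2 in intron reads (6.46%) and 1 in the ratio (9.36%).

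The exon fold changes of the group were set against gene structure. Across 50 genes the Spearman correlation of the day 56 exon change with exon length was 0.353, and 0.287 across 12447 genes; at day 28 it was 0.435 and 0.354. The sign was thus the same in the group and in the whole table. The intron-to-exon change at day 56 had a correlation of -0.425 with exon length across 49 genes, against -0.031 across 10996 genes. Exon and intron changes at day 56 correlated at 0.351 across the 49 genes and 0.50 across all. Genes share the same 9 libraries and are not independent, and these values are given as a description.

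Other genes of the splicing machinery were counted beside the group, from lists made with results of these data known. The shares of all genes called at day 56, to be read beside each count, were 3.42% higher and 3.7% lower in exon reads, 8.16% and 7.49% in intron reads and 8.9% and 6.25% in the ratio. Of 55 other core spliceosome genes tested, 4 rose in exon reads at day 56, the helicase Dhx38 (0.73, SE 0.19, adjusted p = 0.0481), Rbm22 (0.94, SE 0.15, adjusted p = 0.0119), Sart1 (0.81, SE 0.21, adjusted p = 0.0485) and the branch point binder Sf1 (1.09, SE 0.28, adjusted p = 0.0474), and 1 fell, Luc7l3 (-1.33, SE 0.19, adjusted p = 0.00748). In intron reads 10 were higher and 3 lower. In the ratio of introns to exons 23 of these 55 were higher and 3 lower at day 56, with a median of 0.50. Among them were Prpf38a (1.72, SE 0.21, adjusted p = 0.00160), Lsm5 (1.63, SE 0.33, adjusted p = 0.0111) and the 3′ splice site binder U2af1 (1.02, SE 0.16, adjusted p = 0.00401), which was also higher at day 28 (0.80, SE 0.16, adjusted p = 0.0352). In exon reads normoxia replicate 1 lay apart from its group in these genes. Normoxia levels were 21.4, 56.8 and 57.2 CPM in Prpf38a, 11.2, 30.8 and 31.9 in Lsm5 and 52.4, 70.2 and 65.3 in U2af1. The Sugen-Hypoxia libraries held 24.7 to 30.8, 9.22 to 13.6 and 49.0 to 57.9 CPM. Counts of this list with libraries left out are not given.

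Of 9 minor spliceosome genes, 2 fell in exon reads at day 56, Rnpc3 (-1.60, SE 0.23, adjusted p = 0.00924) and Snrnp48 (-0.78, SE 0.19, adjusted p = 0.0452), and 1 was higher and 0 lower in the ratio. Of 19 SR kinases and speckle proteins 1 fell in exon reads, the kinase Clk4 (-0.84, SE 0.20, adjusted p = 0.0413), and 5 were higher and 2 lower in the ratio, with Clk1, which phosphorylates SR proteins, at 1.37 (SE 0.25, adjusted p = 0.00741) and at 1.15 at day 28 (SE 0.25, adjusted p = 0.0424). Of 31 other splicing regulators 1 rose and 2 fell in exon reads, and 3 were higher and 1 lower in the ratio. A list of 15 snRNP assembly genes held genes of the SMN complex, which assembles Sm rings, and other factors such as Tgs1, Coil, Snupn and Clns1a. Of these 15 genes 1 fell in exon reads, Tgs1 (-0.81, SE 0.18, adjusted p = 0.0329). Of the 14 tested in intron reads 1 was higher and 4 lower (Clns1a, Coil, Gemin2 and Snupn), and in the ratio 1 was higher and 0 lower. Of 14 genes of the exon junction complex and nonsense-mediated decay 0 were called in exon reads by edgeR, with 9 at an unadjusted p under 0.05, 3 were higher and 0 lower in intron reads, and 2 higher and 1 lower in the ratio. In intron reads 1 minor spliceosome gene was higher and 2 lower, 1 SR kinase or speckle gene was higher and 0 lower, and 1 other regulator was higher and 3 lower. The exon counts of the SR kinase, regulator, snRNP assembly and exon junction lists lie near the shares of all genes. At day 28 no gene of these lists was called in exon reads by edgeR.

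**Figure D5:**
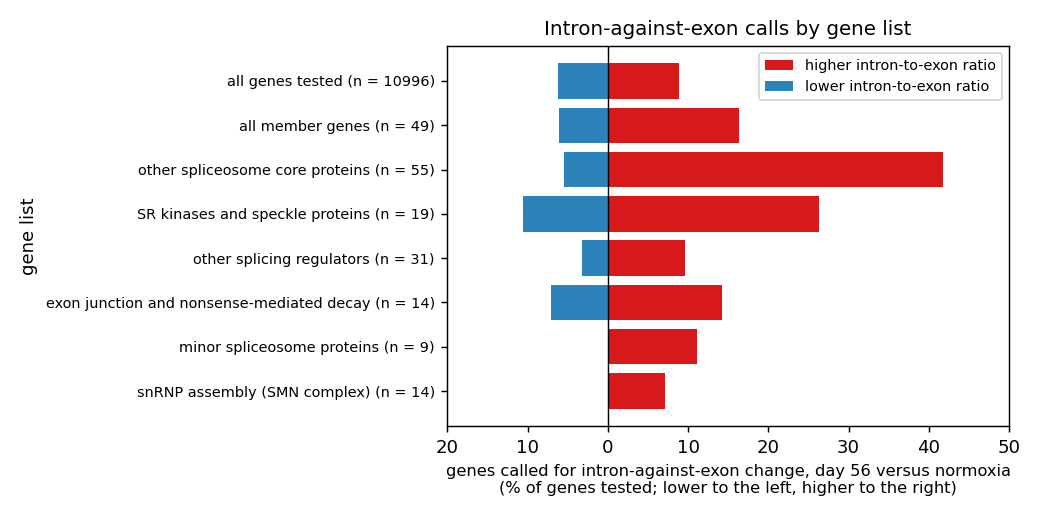
Share of genes called for the intron-against-exon change at day 56 against normoxia (% of genes tested in each list), higher to the right in red and lower to the left in blue, for all 10996 genes tested, the 49 genes of the group and 6 other lists of splicing genes. Core spliceosome genes have the longest bar, 23 of 55 higher, and the group has 8 of 49 higher and 3 of 49 lower.

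The loci of several genes limit what their reads show. Snrpe and Snrpg are listed as single-exon loci on chromosomes 8 and 1, while RefSeq on GRCr8 has the genes on chromosomes 13 and 4; the other 51 symbols have the same chromosome in both. Snrpe had 53.1, 178 and 171 CPM in normoxia and 61.2 to 76.3 CPM in the others (-1.11 at day 56, SE 0.37, adjusted p = 0.0862). Snrpg had 1, 308 and 221 exon reads in normoxia, 11, 3 and 7 at day 28 and 150, 181 and 158 at day 56, with 0% of its exon reads uniquely mapped. Its fitted values, -5.42 at day 28 against normoxia (SE 1.29, adjusted p = 0.0796) and 4.95 between the days (SE 1.28, adjusted p = 0.0970), did not pass, and reads of this locus cannot be assigned to 1 gene. The uniquely mapped share of exon reads was also low in Hnrnpab (1.84%), Hnrnpr (5.29%), Snrpn (8.70%) and Hnrnpk (59.6%). The table shows Hnrnph3 overlapping Rufy2, Hnrnpab overlapping LOC103690164 and Snrpn overlapping Snurf, and strand is not stated, so reads of such pairs cannot be told apart. Sf3b5 has 1 listed exon, so its few reads outside exons are not intron reads in the usual sense, and the same holds for Snrpe.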

How the data were processed

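RNA of 9 PBMC libraries was measured by sequencing of total RNA. The authors deposited 1 table with read counts per gene over exons, over the whole gene and over junctions, with a uniquely mapped version of each, aligned to rn6 per the submitters' processing notes; for the aligner, counter and strand setting the status is: not given in the sources used here. Some deposited count columns were classed as estimated counts by their checked unit, because 8 broken lines of 4 genes shift other values into them. These lines were left out, and every count that was used is a whole number. In addition, 81 columns of per-sample values were not used. Intron reads are gene reads minus exon reads, so they include any read in the gene outside annotated exons. The depth of each library is given with the results, and intervals and floors cover counting error only.

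Exon reads (12447 genes) and intron reads (11713) were tested with edgeR 4.0.16 in R 4.3.3 (filterByExpr, TMM, robust quasi-likelihood fit, all 9 libraries, 1 mean per group), with p-values adjusted by Benjamini-Hochberg over all genes at 0.05. The intron-against-exon change (10996 genes) was the interaction of read kind and group, with each library as a block. Standard errors were derived from the F statistic. DESeq2 1.42.0, other factors, filters, covariates and left-out libraries were alternatives. The scripts were tested on simulated data. No 2 libraries of the same group were duplicates within sampling noise.

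The members and gene lists were chosen with earlier results of these data known. The text names, for each comparison and measure, up to 6 called genes with the largest rise and 6 with the largest fall, the 3 lowest p-values where fewer than 3 were called, 12 well-known genes whatever their result, and the 3 highest and lowest levels.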

Additional observations from a re-analysis of the deposited data

How the results depend on the processing

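Over 61 named results and 1232 alternative values, 999 kept their direction and side of the threshold, 129 lost the call, 71 gained one and 33 changed sign. Most of the 61 were not called in the main fit, and only a called result can lose its call. The 999 are therefore no measure of how stable the calls were. Counts of called genes moved most. DESeq2 gave 3, 11 and 1 in exon reads (day 28, day 56, day 56 against day 28), 4, 14 and 3 in intron reads and 6 in the ratio at day 28. The 11 were 8 higher and 3 lower, against 8.95% and 10.6% of all genes. The 6 in the ratio were all higher, against 4.3% of all genes called higher and 2.67% lower. Leaving out 1 library gave ranges of 0 to 27, 0 to 32 and 0 to 3 in exon reads, 0 to 13, 2 to 20 and 0 to 2 in intron reads, and 0 to 18, 1 to 19 and 0 to 1 in the ratio. Leaving out both libraries that stand apart (chosen after seeing the data) gave 26, 32 and 2, then 18, 23 and 2, then 25, 24 and 3. In that setting 24.2% of all genes were higher and 22.3% lower in exon reads at day 28, and 23.1% and 22.7% at day 56. Where no share of all genes is given here or above, a count cannot be read as particular to the group. With only the 2 groups compared the count was 0 in exon reads at day 56, 2 in exon and in intron reads between the days and 0 in the ratio at day 28; the cause was not tested. The intron share as covariate gave 0 in exon and intron reads at day 56 and 1 in each between the days, and the globin share 1 in exon reads at day 56. Junction reads (added later) gave 1 in exon reads at day 56 and 4 in the ratio at day 28; the run of library numbers as block (added later) gave 8 in exon reads at day 56. In the ratio at day 28, no filter gave 4, uniquely mapped reads 1 and exon sizes 0, and exon sizes gave 1 in intron reads at day 28. Replicate numbers did not pair the libraries (same-number correlations from -0.146 to 0.167); a replicate block gave 1 in intron reads and 5 in the ratio at day 28.

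Sign changes were as follows for day 28 unless stated. With the intron share: Srsf3 0.31, Srsf5 0.26 (day 56 0.15), Hnrnpa1 0.17 (day 56 0.20), Snrpb 0.20, Snrpd1 0.19 (day 56 0.10), Sf3a1 -0.062 and Sf3b1 -0.089 in exon reads. With the globin share: Srsf1 0.045, Srsf2 0.097, Hnrnpa2b1 0.0023 and Sf3b1 -0.11 in exon reads and Snrpd1 -0.028 in intron reads. With exon sizes: Sf3a3 0.082 in intron reads and, in the day 56 ratio, Hnrnpd 0.11, which is the exception in that its main value was called. With junction reads: Srsf2 0.095 and Sf3b1 -0.026; with upper-quartile factors -0.00511 for Sf3b1, exon reads, day 28 versus normoxia. With both libraries left out: Srsf2 0.13 and, at day 56, Snrpb -0.018. The ranges over single left-out libraries that crossed 0, all in exon reads, were -0.41 to 0.072 for Srsf1, -0.16 to 0.24 for Srsf2, -0.071 to 0.023 for Hnrnpa2b1, -0.015 to 0.10 for Hnrnpc, -0.15 to 0.00045 for Snrpb and -0.021 to 0.076 for Sf3b1 and, at day 56, -0.28 to 0.032 for Hnrnpa1 and -0.018 to 0.15 for Snrpb.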
